A study of Homo sapiens with 8 samples.

Results

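The wildtype degron line of MEL202 cells was compared with its parental line. MEL202 is a human uveal melanoma cell line with a mutant allele of SF3B1, and each line was sequenced with and without Shld, a small ligand that stabilises a destabilising domain fused to a protein. In the wildtype degron line this domain had been knocked in at wildtype SF3B1, and the labels give a clone name and a time of 2 days for both of its libraries, with Shld and without it. The parental cells carry no such domain, and their label gives no time, although the column name of the library without Shld gives 4 days. Both lines keep the mutant SF3B1 allele. All columns of both lines were taken, which gave 2 libraries of the wildtype degron line and 2 of parental cells, 4 of the 8 libraries of the study. The others were 2 of a mutant degron line (the domain on mutant SF3B1) and 2 of a line with the mutant allele knocked out. Its column names add a destabilising domain at wildtype SF3B1 that the labels do not mention.

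Both Shld states of a line were pooled, so the comparison describes standing differences of the clone. One of its libraries came from cells without the stabilising ligand. The labels name 1 clone and no separate cultures, so the tag and the descent of the clone cannot be told apart, and p-values measure only the spread between these libraries.

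SF3B1 belongs to the U2 particle of the spliceosome, which binds the branch point of an intron before it is spliced. A cell line regrown from 1 edited cell also carries whatever that cell had silenced, switched on, lost or gained. Ribosomal proteins are encoded by short, abundant mRNAs that share a pyrimidine-rich first stretch, and the chaperones of the endoplasmic reticulum are induced together when secretory proteins accumulate unfolded.

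Values were FPKM-type levels (fragments per length of transcript and size of library) that the authors had rescaled so that the 75th percentile over 32087 loci was 10 in every library. They summed to 762679 and 765737 in the wildtype degron line, against 961994 and 875923 in parental cells, and absolute depth was unknown. Pairs of values are given with Shld first and without it second. The tested set held 8600 named genes averaging 5 or more across the 8 libraries. Melanocyte markers stood high in both lines, with a summed level of 15300 and 14100 in the wildtype degron line against 11900 and 12900 in parental cells, and all 7 were above 1 in the 4 libraries. All 7 epithelial and all 5 endothelial markers were below 1 in every one of them, and 3 of 4 listed blood markers were too. Of 5 listed fibroblast markers 3 were below 1 in all 4 libraries and FAP reached 1.32. LUM alone was above 5, at 12.9 and 10.8 against 29.6 and 20.7. In bulk libraries fewer cells of a type and less RNA per cell cannot be told apart.

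By limma with Benjamini-Hochberg adjustment at 0.05, 4234 of the 8600 genes (49.2%) differed between the lines. In the wildtype degron line 2076 (24.1%) were higher and 2158 (25.1%) lower, and 4796 genes had an unadjusted p below 0.05. Differences were mostly small. A log2 difference of at least 1 together with the adjusted p was reached by 216 genes (2.51%), 95 higher (1.1%) and 121 lower (1.41%). The count of 216 was 91 without the parental library with Shld and 516 without the parental library without Shld. The balance of directions rests on the scaling. When each library was brought to the same total instead, the median difference of all genes was 0.26 in place of 0.01, with 3731 genes higher and 906 lower, so that 80.5% of calls were higher in place of 49%.

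Part of the difference ran with transcript length. The median difference was -0.56 for the 86 genes with transcripts of up to 600 bases and +0.32 for the 1154 genes over 6000 bases. Spearman's rho across 7972 genes was 0.42 with length and 0.31 with GC content, a description across genes that share the same libraries. The 2 parental libraries also differed from each other with length (rho 0.28, without minus with Shld), and the 2 wildtype degron libraries did not (rho -0.01). Against the same parental libraries rho with length was 0.29 in the mutant degron line and 0.31 in the knockout line, and for wildtype degron cells minus these lines it was 0.18 and 0.12. What lies behind the relation with length was not tested. A correction of each library on length and GC, chosen after this was seen, left 2499 of 7972 genes called (31.3%), 1427 higher (17.9%) and 1072 lower (13.4%), and 90 (1.13%) with a log2 difference of at least 1. Of the 3913 genes called as deposited that had a length, 1859 were called in the same direction after it and 16 in the other. Its values stand below as corrected differences for each named gene whose call it ends or whose difference it moves by over 1.5 times, and genes with no length have none.

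**Figure D1:**
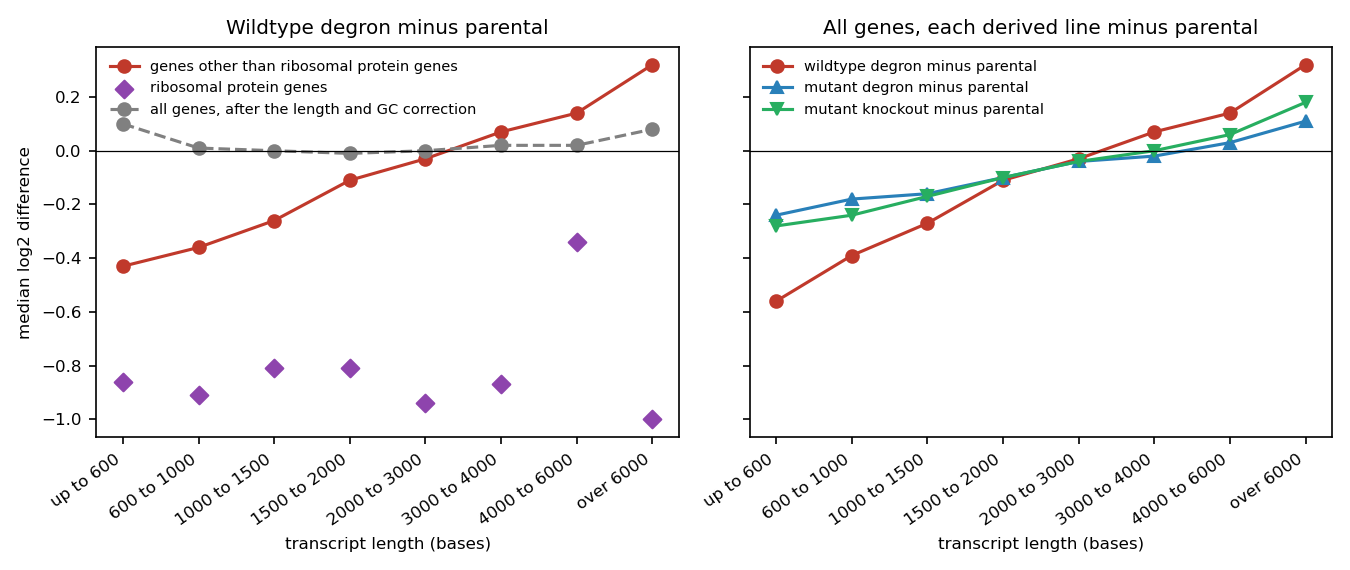
Median log2 difference by transcript length in 8 length classes. The left panel shows the wildtype degron line minus parental cells for genes other than ribosomal protein genes (circles, between -0.43 and 0.32), for ribosomal protein genes (diamonds, 1 to 24 genes a class) and for all genes after correction (dashed), and the right panel shows each derived line minus the same parental libraries. Medians run upward with length in all 3 lines.

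The targeted gene was examined first. SF3B1 stood at 188 with Shld and 201 without it in the wildtype degron line, against 266 and 240 in parental cells. The groups did not overlap, and the log2 difference was -0.38 ± 0.11 (limma estimate and standard error, adjusted p = 0.016), or -0.49 after correction (adjusted p = 0.0096). The call was lost without the wildtype degron library with Shld (-0.33, adjusted p = 0.16) and without the one lacking Shld (-0.42, adjusted p = 0.074), and the adjusted p was 0.032 and 0.0019 when a parental library was left out. Mutant degron cells held SF3B1 at 248 and 252, and the knockout line was below the wildtype degron line, at 158 and 138. The domain destabilises protein, and protein levels were not measured here.

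The largest falls were genes that the wildtype degron line had all but lost. SYNPR, which encodes the synaptic vesicle protein synaptoporin, was listed at 0 in both wildtype degron libraries, against 22.1 and 22.5 in parental cells. Mutant degron cells held it at 36.1 and 39.7, while the knockout line was near 0 at 0.0182 and 0.0501. EMC10 (listed with its older name C19orf63), a subunit of the membrane protein insertion complex of the endoplasmic reticulum, was listed at 0 in both wildtype degron libraries, against 12.2 and 13.2 in parental cells. Mutant degron cells were near 0 too, at 0.111 and 0.0629, and the knockout line stood at 44.2 and 47.3. An exact 0 in such a table can be a failed estimate, so no fold against parental cells is given for these genes.

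MYD88 encodes the adaptor that carries signals from Toll-like and interleukin-1 family receptors. It had 0.296 and 0.231 in the wildtype degron line, against 7.33 and 7.38 in parental cells, and its difference was -2.73 ± 0.15 (limma, adjusted p = 3.5e-06). The other 4 libraries held it between 8.58 and 11.9, so that the wildtype degron line alone was low. SCML1, a Polycomb-group relative, had 0.0623 and 0 against 6.78 and 5.35, a difference of -2.77 ± 0.18. The histone pseudogene H2BFXP had 0.139 and 0.0579 against 10.2 and 7.90. HTN3, a salivary histatin gene, was lowered but not lost, at 8.42 and 5.26 against 27.2 and 26.4. Its difference of -1.86 ± 0.16 became -0.81 after correction. The other derived lines held less of HTN3, with 0.76 and 0.676 in mutant degron cells and 0 and 0.135 in the knockout line. TTR, the thyroxine carrier transthyretin, had 0.973 and 0.929 against 4.66 and 5.28, with -1.61 as deposited and -1.04 after correction.

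Noncoding RNAs and short abundant messages made up most of the other large falls. SNHG5, a small nucleolar RNA host gene, stood at 774 and 580 against 2790 and 1810, and its difference of -1.75 became -0.77 after correction. NEAT1, the scaffold RNA of paraspeckles, stood at 25.5 and 17.6 against 70.2 and 49.0, a difference of -1.42 ± 0.18 with -1.50 after correction. LINC00152 had 4.69 and 10.4 against 31.5 and 22.1, with the wildtype degron libraries over 2-fold apart. ZNFX1-AS1 had 137 and 176 against 509 and 339, and without a statement on strand its reads cannot be told from those of ZNFX1. Also in this set were RPS27A, RPL39, RPL22L1 and RPL26 (ribosomal proteins), COX7B (respiratory chain), PFDN4 (prefoldin), IMMP1L, TMEM126B and DAPL1. IMMP1L was no longer called after correction (-0.58, adjusted p = 0.078). The corrected difference was -0.71 for PFDN4, -0.54 for TMEM126B and -0.62 for DAPL1, against -1.44, -1.35 and -1.44 as deposited.

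Among the largest rises were a secreted chaperone and several large surface and matrix proteins. CLU, the extracellular chaperone clusterin, had 232 and 315 in the wildtype degron line, against 75 and 102 in parental cells, a difference of 1.62 ± 0.17 (limma, adjusted p = 0.00016). The remaining 4 libraries lay between 50.9 and 84.9. TGFBI, a matrix protein that binds integrins, had 13.9 and 10.6 against 2.59 and 4.17. LRP1, a large endocytic receptor, had 20.4 and 20.5 against 5.88 and 6.56. CSPG4, the melanoma chondroitin sulfate proteoglycan, had 39.4 and 38.1 against 12.4 and 13.3, a difference of 1.52 ± 0.10 that became 1.01 after correction. Both pairs were tight for LRP1 and CSPG4.

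PXDN (a matrix peroxidase), LOXL2 (a collagen cross-linking oxidase) and FLNC (an actin cross-linker) differed by 1.49, 1.44 and 1.47, and FLNC by 0.97 after correction. L1CAM, an adhesion molecule of axons, had 25.3 and 21.3 against 7.78 and 8.72. PLXNC1, a semaphorin receptor, had 274 and 244 against 85.2 and 108. MAP1B, a microtubule protein of neurons, had 13.4 and 14.8 against 4.38 and 4.84. DSP, the desmosome plaque protein desmoplakin, had 25.1 and 22.3 against 10.1 and 6.09, and it was the single member of the epithelial list with a mean of at least 5.

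Transporters and a pigment gene completed the set. SLC1A4, a neutral amino acid carrier, had 46.5 and 48.5 against 16.1 and 19, and SLC16A3, the lactate exporter MCT4, had 41.7 and 43.6 against 14.6 and 17.5. OCA2, the melanosomal channel behind a form of albinism, had 71.1 and 67.1 against 24.4 and 27.6. OCIAD2 had 15.9 and 18.2 against 7.14 and 4.19, with a corrected difference of 2.29 in place of 1.47. The long transcripts of LRP1 and DYNC1H1 had the reverse, with 0.99 in place of 1.57 and 0.91 in place of 1.46. PARP10, IGSF3 and the LOC729603 locus also belonged here. LOC390660 had 11.3 and 13.2 in the wildtype degron line and was listed at 0 in both parental libraries. As loci without a protein-coding name both LOC entries may share reads with related copies.

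**Figure D2:**
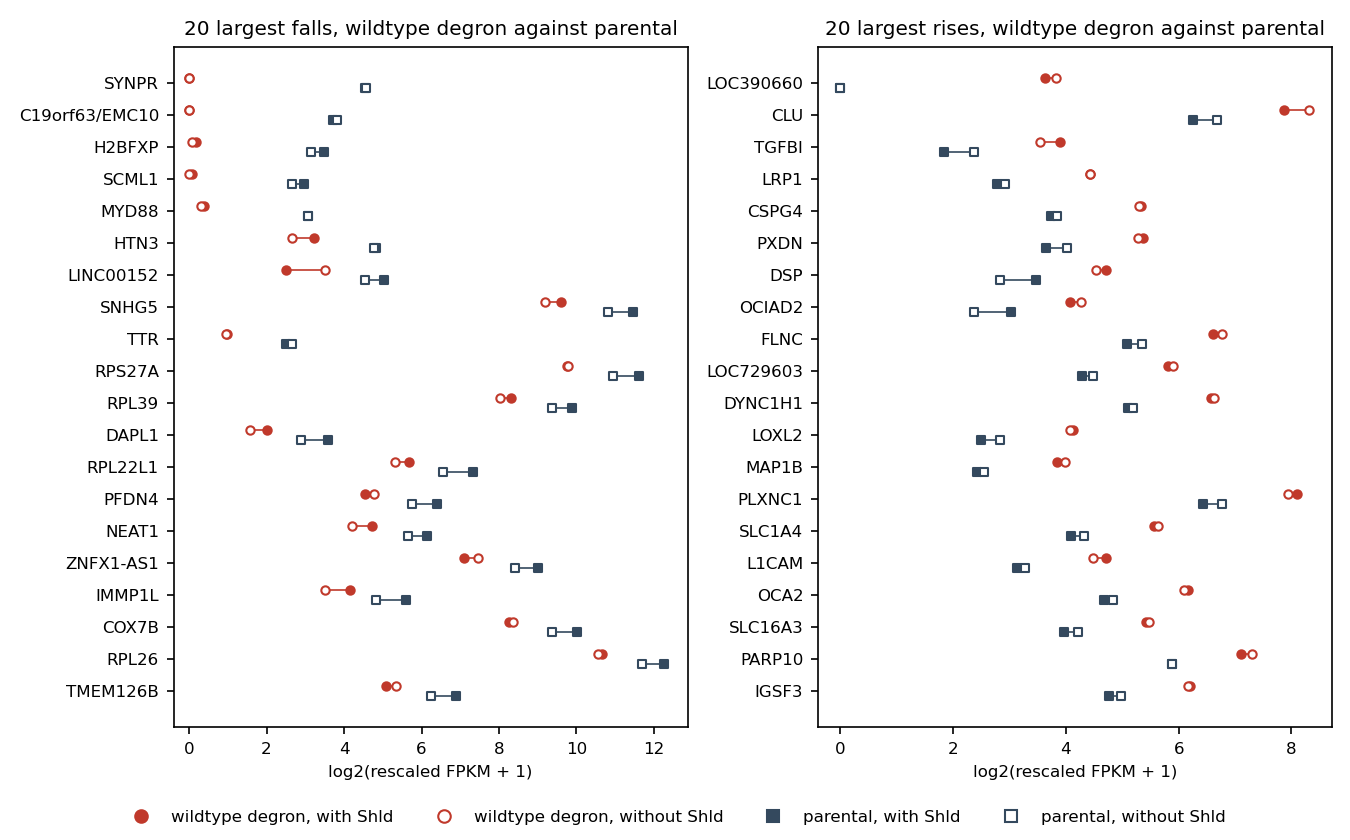
Level of the 20 largest falls (left) and 20 largest rises (right) on the log2(rescaled FPKM + 1) scale in each library. Circles are wildtype degron and squares parental cells, filled with Shld and open without it, and the line joins the 2 libraries of a line. The pairs of the 2 lines do not overlap for any of these genes, which is how they were chosen.

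Ribosomal protein genes had the lowest median of the lists with at least 10 tested genes. Of the 64 tested, 61 fell and 0 rose, with a median of -0.87, against 25.1% of all genes lower and a median of 0.01. Together they took 13.4% and 13.0% of the summed values in the wildtype degron line, against 22.7% and 19.1% in parental cells and 17.9% to 20.5% in the other 4 libraries. RPS27A, which encodes a ubiquitin fused to a ribosomal protein, had 870 and 879 in the wildtype degron line, against 3150 and 1950 in parental cells, a difference of -1.50 ± 0.20 (limma, adjusted p = 0.00038) that became -0.92 after correction. RPL26 had 1620 and 1510 against 4900 and 3320, and RPL39 had 318 and 259 against 952 and 664. After correction RPL26 differed by -0.54 in place of -1.37 and RPL39 by -0.48 in place of -1.47. Both parental libraries lay above both wildtype degron libraries for these genes, and the parental library with Shld was the higher of the pair.

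The list median was below 0 under each scaling tried, with a median of -0.38 after quantile normalization and -0.61 after scaling to the total, where the median of all genes was 0.26. Correction for length and GC left 39 of 64 lower (13.4% of all genes) and 0 higher, with a median of -0.42. The ribosomal protein genes had lower medians than other genes in all 8 length classes. Those of 600 to 1000 bases had a median of -0.91 over 24 genes, against -0.36 over 377 others. The direct comparison with lines that are not parental gave 58 of 64 lower than in the mutant degron line (30.1% of all genes lower) and 61 of 64 lower than in the knockout line (22.4% of all genes lower). Many ribosomal protein genes have processed pseudogenes, and no source used here says how the authors' counting divided such reads.

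The first bases of the 6 ribosomal protein genes with the largest falls are shown because such messages usually begin with a C and a run of pyrimidines. Each window holds 20 bases before and 20 bases from the start of the gene, and capitals mark the first 5 bases from the start. Sequences and positions are those of RefSeq, GRCh38.p14, in which 56 of the 64 genes were matched. Of the 6, RPL9 had a corrected difference of -0.56 in place of -1.34, and RPS29 was no longer called after correction (-0.24, adjusted p = 0.18).

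RPS27A, chr2:55231883-55231922, plus strand: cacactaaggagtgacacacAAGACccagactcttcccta
RPL39, chrX:119791611-119791650, minus strand: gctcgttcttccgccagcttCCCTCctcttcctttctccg
RPL22L1, chr3:170870176-170870215, minus strand: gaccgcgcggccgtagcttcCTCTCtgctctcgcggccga
RPL26, chr17:8383174-8383213, minus strand: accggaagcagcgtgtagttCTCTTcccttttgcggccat
RPL9, chr4:39458903-39458942, minus strand: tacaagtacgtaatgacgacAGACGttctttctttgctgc
RPS29, chr14:49598691-49598730, minus strand: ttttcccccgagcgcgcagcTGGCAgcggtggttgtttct

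A C followed by 4 pyrimidines stood at the annotated start of 38 of these 56 genes (67.9%), against 1429 of 35116 promoters in RefSeq (4.07%). Within 5 bases of the start it was found in 45 of the 56 (80.4%), against 7408 of all promoters (21.1%). It was present in RPL39, RPL22L1 and RPL26, and absent at the annotated start of RPS27A, RPL9 and RPS29. The median difference was -0.90 over the 38 genes with a match, of which 37 fell, and -0.81 over the 18 without, of which 16 fell, so both sets of genes were low.

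Other messages tied to translation were lower as well. Of 11 tested translation factors with TOP messages 8 fell and 1 rose (median -0.41), against 25.1% and 24.1% of all genes. After correction 1 of 10 remained lower, against 13.4% of all genes. EEF1B2, an elongation factor subunit, had 444 and 423 against 934 and 741 and was that gene (corrected difference -0.48). All 5 tested small nucleolar RNA host genes fell (median -0.92) and 3 did so after correction, namely SNHG5, SNHG10 and EPB41L4A-AS1. SNHG6 and SNHG8 had corrected differences of -0.07 and 0.00, and SNHG10 -0.45 in place of -0.74. MYC and ribosome biogenesis genes did not share the direction, with 6 of 20 higher and 4 lower (24.1% and 25.1% of all genes) and a median of 0.06. POLR1A, the large subunit of RNA polymerase I, had 23.5 and 23.2 against 12 and 13.1, a difference of 0.85 that became 0.38.

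Oxidative phosphorylation subunits were mostly lower too, with most of the median gone after correction. Of 37 tested, 27 fell and 1 rose (median -0.53), against 25.1% and 24.1% of all genes. After correction 12 of 32 were lower and 1 higher (median -0.15), against 13.4% and 17.9% of all genes. NDUFA4, a subunit of cytochrome c oxidase, had 142 and 140 in the wildtype degron line, against 429 and 274 in parental cells, and its corrected difference was -0.86. COX7B had 305 and 327 against 1030 and 657, with -1.38 as deposited and -0.38 after correction. NDUFB3, a complex I subunit, had 60.6 and 67.1 against 178 and 123, with -1.20 as deposited and -0.46 after correction. Proteasome subunits showed 11 of 24 lower and 0 higher (median -0.27). After correction 4 of 24 were lower, near the 13.4% of all genes, with a median of 0.04. PSMA5, an alpha ring subunit, was the member with the largest corrected fall (-0.68), at 29.8 and 33.0 against 73.1 and 52.8. The proteasome median was 0 after scaling to the total, below the 0.26 of all genes.

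**Figure D3:**
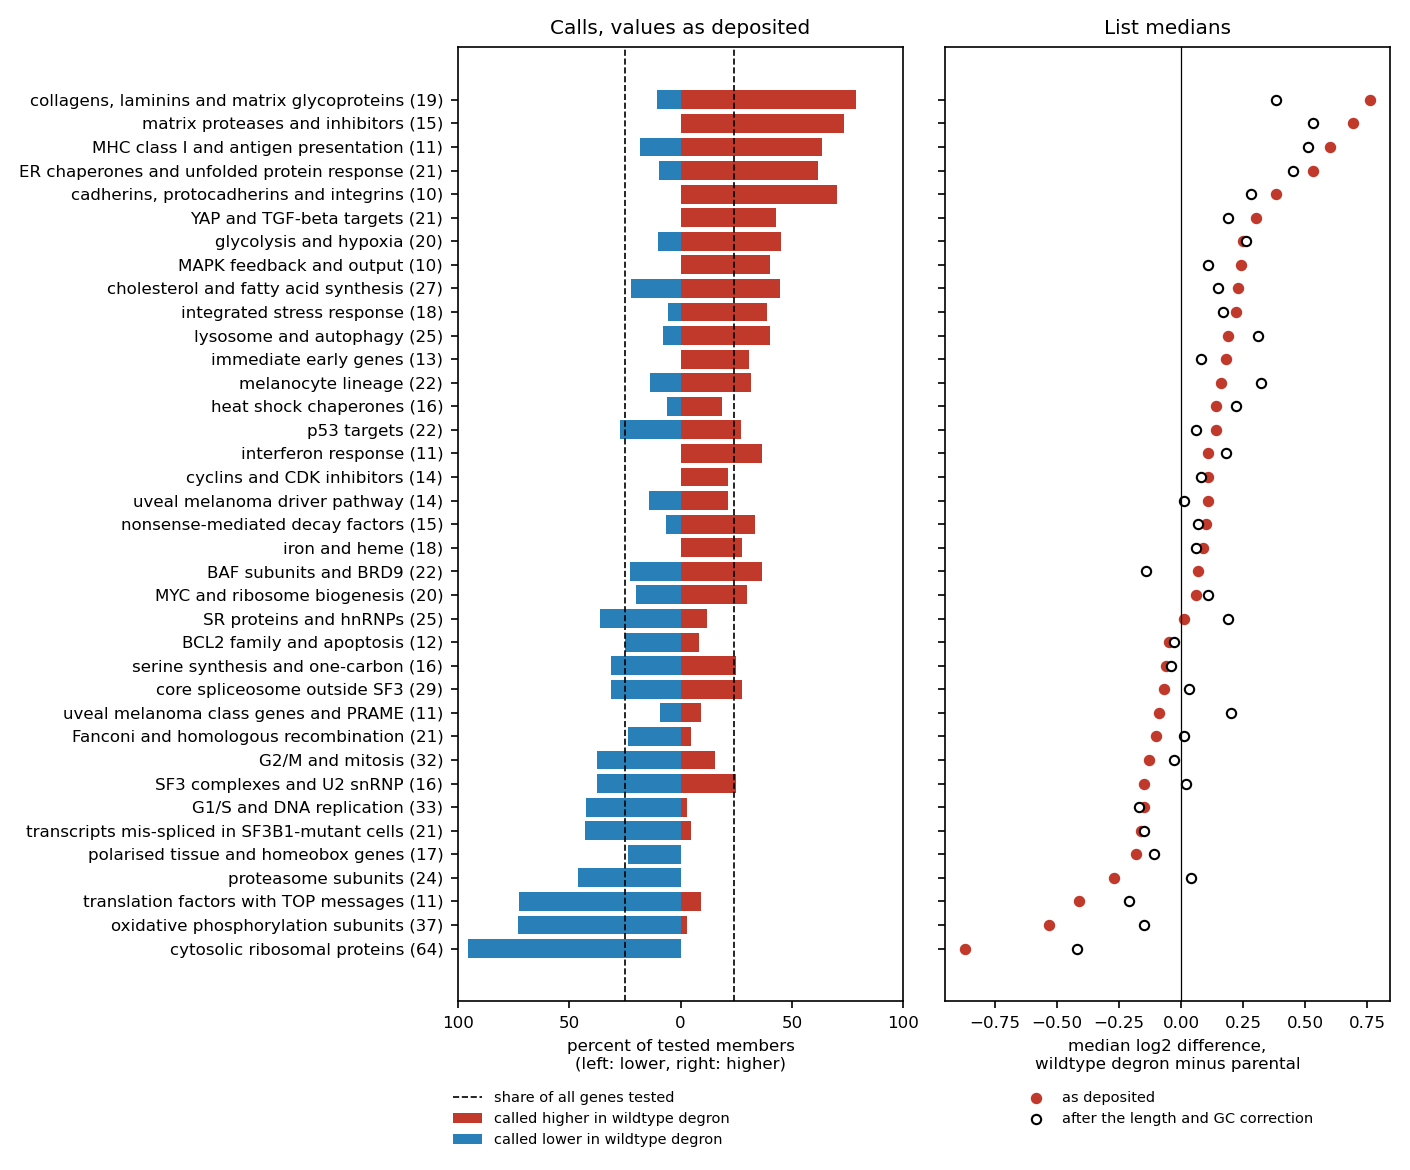
Gene lists with at least 10 tested members, with the number tested in brackets. The left panel gives the percent of tested members called higher (right) or lower (left) in the wildtype degron line by limma on deposited values, with dashed lines at 24.1% and 25.1% for all genes, and the right panel gives list medians as deposited (filled) and after correction (open). Ribosomal protein genes stand lowest and matrix genes highest as deposited, and after correction the proteasome median is near 0.

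Chaperones of the endoplasmic reticulum and other genes of the unfolded protein response were mostly higher. Of 21 tested, 13 rose and 2 fell (median 0.53), against 24.1% and 25.1% of all genes. After correction 14 were higher and 1 lower (median 0.45), against 17.9% and 13.4% of all genes. P4HB, a protein disulfide isomerase, had 1260 and 1330 in the wildtype degron line, against 621 and 846 in parental cells, a difference of 0.84 ± 0.16 (limma, adjusted p = 0.0017). HSPA5, the chaperone BiP, had 287 and 317 against 160 and 214. PDIA4, another disulfide isomerase, had 182 and 210 against 102 and 133. HYOU1 and SEL1L, a chaperone of the lumen and an adaptor of degradation from this compartment, differed by 0.74 and 0.73, and HYOU1 by 0.45 after correction. In each of these genes the parental library with Shld was the lowest of the 4. DNAJB9, a co-chaperone and a target of the unfolded protein response, went the other way, at 10.2 and 12 against 21.0 and 17.9, with a difference of -0.76 that became -0.46. XBP1, the transcription factor of this response, had 95.5 and 104 against 92.3 and 107, a difference of 0.00 ± 0.11. Against the mutant degron line 2 of the 21 genes were higher and 3 lower (32.3% and 30.1% of all genes). Against the knockout line 11 were higher and 3 lower (22.4% of all genes in either direction).

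The promoters of this list that hold the ER stress element are shown because several of these genes rose together. The element was searched as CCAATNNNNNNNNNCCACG on both strands over the 250 bases before the annotated start. Capitals mark it, and a match on the other strand begins with CGTGG and ends with ATTGG as printed.

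HSPA5, chr9:125241344-125241593, minus strand: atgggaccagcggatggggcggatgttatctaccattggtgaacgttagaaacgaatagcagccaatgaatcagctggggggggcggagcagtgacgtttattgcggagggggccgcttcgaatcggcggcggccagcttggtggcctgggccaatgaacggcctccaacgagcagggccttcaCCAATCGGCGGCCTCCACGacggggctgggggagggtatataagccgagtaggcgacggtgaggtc
CALR, chr19:12938359-12938608, plus strand: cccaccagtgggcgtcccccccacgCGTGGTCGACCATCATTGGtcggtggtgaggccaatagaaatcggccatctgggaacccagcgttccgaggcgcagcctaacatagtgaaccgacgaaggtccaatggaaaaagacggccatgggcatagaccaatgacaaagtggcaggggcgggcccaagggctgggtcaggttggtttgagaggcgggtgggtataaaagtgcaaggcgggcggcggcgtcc
CANX, chr5:179698679-179698928, plus strand: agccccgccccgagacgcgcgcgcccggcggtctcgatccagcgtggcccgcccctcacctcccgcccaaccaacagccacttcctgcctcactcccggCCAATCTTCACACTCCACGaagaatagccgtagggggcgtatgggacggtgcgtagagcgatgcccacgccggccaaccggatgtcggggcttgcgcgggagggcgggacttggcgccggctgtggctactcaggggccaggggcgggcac
CRELD2, chr22:49918384-49918633, plus strand: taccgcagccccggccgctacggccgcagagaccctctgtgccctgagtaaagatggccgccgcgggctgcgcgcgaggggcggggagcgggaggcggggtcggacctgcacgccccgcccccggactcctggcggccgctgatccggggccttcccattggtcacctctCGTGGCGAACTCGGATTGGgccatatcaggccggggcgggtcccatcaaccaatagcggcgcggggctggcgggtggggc
XBP1, chr22:28800570-28800819, minus strand: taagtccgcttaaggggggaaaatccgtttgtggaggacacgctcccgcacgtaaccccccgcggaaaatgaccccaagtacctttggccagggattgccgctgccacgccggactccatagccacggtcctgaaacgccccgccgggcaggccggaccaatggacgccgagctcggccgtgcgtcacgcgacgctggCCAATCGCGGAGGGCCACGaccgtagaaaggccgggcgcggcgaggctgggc

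The element was found before 5 of 20 matched genes of the list (25%), against 26 of 35116 promoters (0.074%). The list was drawn up as genes of this response, so that share describes the list and not this line. Whether the element has a part in the rise was not tested. It lies on the strand of the gene in HSPA5, CANX and XBP1 and on the other strand in CALR and CRELD2. Of the 5 genes HSPA5, CALR, CANX and CRELD2 rose and XBP1 did not pass the test, and of the 15 without a match 8 rose and 2 fell. CALR, the chaperone calreticulin, had 1030 and 1110 against 579 and 767, and CANX, the chaperone calnexin, had 634 and 607 against 357 and 458.

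Genes of the extracellular matrix were higher in most cases. Of 19 tested collagens, laminins and matrix glycoproteins 15 rose and 2 fell (median 0.76), against 24.1% and 25.1% of all genes. After correction 11 were higher and 2 lower (median 0.38), against 17.9% and 13.4% of all genes. LAMC1, a laminin chain of basement membranes, had 96.7 and 104 in the wildtype degron line, against 40.1 and 48.7 in parental cells, and its difference of 1.16 became 0.77. LAMA1, a second laminin chain, had 65.4 and 66.3 against 32.9 and 33.0, a difference of 0.98 that became 0.59. POSTN, periostin, had 149 and 134 against 69.0 and 69.9, with a corrected difference of 1.27. HSPG2, perlecan, had 23.2 and 19.9 against 10.7 and 10.4, and its difference of 0.96 became 0.36. LUM, the proteoglycan lumican, fell at 12.9 and 10.8 against 29.6 and 20.7, a difference of -1.01 that became -0.60. Against mutant degron cells 7 of the 19 were higher and 10 lower (median -0.26), where all genes had 32.3% and 30.1%. Against the knockout line 4 were higher, POSTN among them, and 11 lower (median -0.56), where all genes had 22.4% in either direction. Of the other listed fibroblast markers THY1 was at 0 in all 4 libraries, COL1A2 reached at most 0.0417, DCN 0.273 and FAP 1.32.

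Proteases and receptors of the same space were higher as well. Of 15 tested matrix proteases and inhibitors 11 rose and 0 fell (median 0.69), against 24.1% and 25.1% of all genes. After correction 10 of 14 were higher, against 17.9% of all genes. MMP14, the membrane-anchored collagenase activator, had 368 and 411 against 148 and 203. PLAT, tissue plasminogen activator, had 126 and 149 against 56.8 and 81.3. ADAM9 and ADAM10, membrane sheddases, differed by 0.90 and 0.80. Of the 10 tested members of the cadherin, protocadherin and integrin list 7 rose and 0 fell, against 24.1% and 25.1% of all genes. After correction 4 were higher and 0 lower. CDH2, a cadherin outside this list, was lower (-0.71, limma, adjusted p = 0.0019). Relative to mutant degron cells 3 of the 10 were higher and 7 lower, and relative to the knockout line 2 were higher and 6 lower. ITGA6, a laminin receptor chain, had 8.79 and 12 against 3.70 and 5.79. Of the 21 YAP and TGF-beta targets 9 rose and 0 fell, with 6 higher after correction, among them TGFBR1 and TEAD1. Relative to mutant degron cells 0 of the 21 were higher and 13 lower (30.1% of all genes lower). Relative to the knockout line 0 were higher and 15 lower (22.4% of all genes lower).

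**Figure D4:**
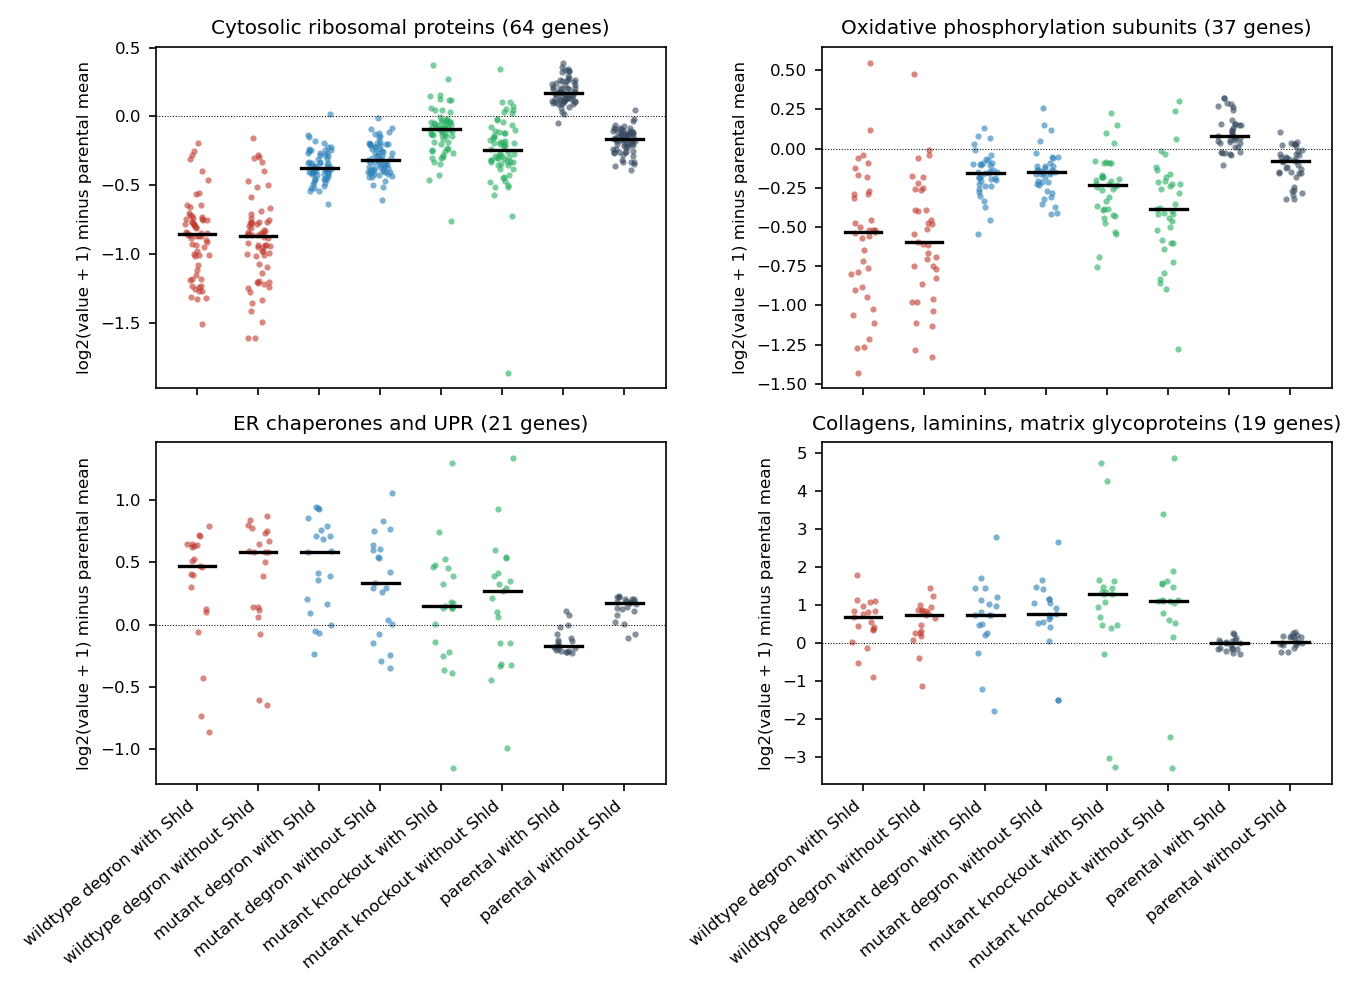
Log2(value + 1) of each gene minus its parental mean, in all 8 libraries, for 4 gene lists. Each point is a gene and each bar the median of a library, in red for wildtype degron, blue for mutant degron, green for mutant knockout and dark for parental cells. Both wildtype degron libraries stand lowest for ribosomal protein genes, with the parental pair split by Shld, and matrix genes are high in all 3 derived lines.

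Pigment cell genes were called in both directions. Of 22 tested melanocyte lineage genes 7 rose and 3 fell as deposited (median 0.16), against 24.1% and 25.1% of all genes. After correction 12 rose and 1 fell (median 0.32), against 17.9% and 13.4% of all genes. OCA2 had the largest rise. EDNRB, the endothelin receptor of melanocytes, had 223 and 242 in the wildtype degron line, against 118 and 134 in parental cells, and GPR143, a receptor of the melanosome, had 194 and 136 against 89.3 and 111. BCAN, the proteoglycan brevican, had 212 and 158 against 77.3 and 86.3. MLANA, the antigen MART-1, was lower at 1410 and 1270 against 2280 and 1820, and its corrected difference of -0.26 did not pass (adjusted p = 0.13). CAPN3, a protease of this lineage, fell both as deposited (-0.48) and after correction (-0.60). In the direct comparisons 14 of 22 genes were higher than in the mutant degron line (32.3% of all genes) and 19 of 22 higher than in the knockout line (22.4%).

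Lysosomal genes were higher in part. Of 25 tested, 10 rose and 2 fell (median 0.19), against 24.1% and 25.1% of all genes. After correction 13 were higher and 2 lower (median 0.31), against 17.9% and 13.4% of all genes. CTSD, cathepsin D, had 767 and 847 against 324 and 430. LAMP1, a membrane protein of lysosomes, had 220 and 236 against 101 and 136. CTSA, GAA and NPC1 differed by 0.95, 0.85 and 0.85, and GAA by 0.55 after correction.

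Immune genes held a large loss and moderate gains. Besides MYD88, the 6 tested inflammatory genes included ICAM1, a leukocyte adhesion ligand, at 65.8 and 80.6 against 34.0 and 42.9. Of 11 tested genes of MHC class I and antigen presentation 7 rose and 2 fell (median 0.60), against 24.1% and 25.1% of all genes. After correction 8 were higher and 1 lower, against 17.9% and 13.4% of all genes. CALR and CANX belong to this list too. HLA-E, a nonclassical class I chain, had 67.0 and 74.4 against 42.9 and 49.1, and TAP2, a peptide transporter, had 17.8 and 19.4 against 10.6 and 13.3, a difference of 0.61 that became 0.33. B2M, the shared light chain, fell as deposited, at 576 and 548 against 1260 and 916, with a corrected difference of -0.16 (adjusted p = 0.28). PSME2, a proteasome activator subunit, fell by 0.73 and by 0.64 after correction. Of 11 interferon response genes 4 rose, against 24.1% of all genes, and 0 fell. IFITM3, an antiviral membrane protein, was one of the 4, at 99.1 and 115 against 64.9 and 70.3, with 0.65 as deposited and 1.01 after correction.

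Replication genes were lower more often than higher. Of 33 tested G1/S and DNA replication genes 14 fell and 1 rose, against 25.1% and 24.1% of all genes. Their median of -0.15 was +0.10 after scaling to the total, where all genes had 0.26. After correction 6 fell and 0 rose (median -0.17), against 13.4% and 17.9% of all genes. GINS2, a subunit of the replicative helicase, had 53.8 and 42.1 in the wildtype degron line, against 115 and 89.0 in parental cells. POLE2, a DNA polymerase epsilon subunit, had 6.71 and 5.09 against 13.1 and 11.7, with -0.97 as deposited and -0.52 after correction. PCNA, the sliding clamp, had 236 and 211 against 393 and 321, and its corrected difference was -0.21 (adjusted p = 0.15). The list median was -0.02 between the libraries with Shld and -0.31 between those without. Mitotic genes were split, with 5 of 32 higher and 12 lower. After correction 6 were higher and 4 lower, near the 17.9% and 13.4% of all genes. MKI67 and CENPF, with long transcripts, rose at 49.2 and 40.5 against 20.7 and 22.9 and at 80.9 and 65.7 against 36.3 and 39.6. The difference of MKI67 became 0.59 in place of 1.00 after correction. MAD2L1, the spindle checkpoint protein, fell at 74.4 and 65.3 against 200 and 136, and its corrected difference was -1.21. Mitotic genes were lower than in the mutant degron line in 24 of 32 cases (30.1% of all genes) and lower than in the knockout line in 2 of 32.

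Nutrient transport and lipid genes showed single large changes. The integrated stress response list had 18 tested genes, of which 7 rose, against 24.1% of all genes, and 1 fell. After correction 5 were higher and 1 lower, against 17.9% and 13.4% of all genes. SLC7A5 and SLC3A2, the 2 chains of the large neutral amino acid transporter, had 523 and 580 against 243 and 289 and 502 and 540 against 226 and 285. SLC7A1, a cationic amino acid carrier, differed by 0.89 and by 0.46 after correction. MTHFD2, a mitochondrial folate enzyme, fell by 0.54. Of 27 cholesterol and fatty acid synthesis genes 12 rose and 6 fell, against 24.1% and 25.1% of all genes. After correction 6 of 26 were higher and 3 lower (median 0.15), against 17.9% and 13.4% of all genes. SCD, the stearoyl-CoA desaturase, had 1340 and 1190 against 560 and 672, while IDI1 and MSMO1, enzymes of sterol synthesis, fell by 0.89 and 0.83 as deposited and by 0.49 and 0.37 after correction. SREBF2, the transcription factor of sterol synthesis, rose by 0.76, and by 0.40 after correction. Of 20 glycolysis and hypoxia genes 9 rose, against 24.1% of all genes, and 2 fell. Among the 9 was SLC2A1, the glucose transporter GLUT1, at 9.01 and 9.19 against 3.65 and 5.02. After correction 7 of the 20 were higher and 0 lower.

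Splicing genes had no common direction. Of 16 genes of the SF3 complexes and the U2 particle 4 rose and 6 fell, against 24.1% and 25.1% of all genes. After correction 0 of 15 were higher and 1 lower, against 17.9% and 13.4% of all genes, the 1 being SF3B1 itself. SF3B14, which encodes a small SF3b subunit, fell by 0.77 and SF3B3, a large one, rose by 0.76 with a corrected difference of 0.41 (adjusted p = 0.072). Of 25 SR proteins and hnRNPs 3 rose and 9 fell. SRSF7 had 89.6 and 87.7 against 200 and 171, and SRSF3 had 150 and 141 against 263 and 230. HNRNPH1 had 11.2 and 8.10 against 31.6 and 20.6, and with several related loci its level is less certain. Of 21 genes whose transcripts are mis-spliced in SF3B1-mutant cells 1 rose and 9 fell, and 1 and 4 after correction. ABCC5, a drug exporter, had 56.7 and 54.6 against 97.8 and 86.1 and a corrected difference of -1.03. These are gene levels, and isoforms were not measured here.

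Other lists had smaller shares of called genes or calls in both directions, where 24.1% of all genes were higher and 25.1% lower. Of 22 p53 targets 6 rose and 6 fell, near the shares of all genes, and 1 and 1 after correction. GDF15, a secreted stress cytokine, had 931 and 1190 against 511 and 640, and MDM2 rose by 0.47 with a corrected difference of 0.17. Of 14 uveal melanoma driver genes 3 rose and 2 fell, and EIF1AX, an initiation factor, fell by 0.54 with a corrected difference of -0.25 (adjusted p = 0.053). Of 15 nonsense-mediated decay factors 5 rose and 1 fell, of 22 BAF genes 8 and 5, of 12 BCL2 family and apoptosis genes 1 and 3, and of 21 Fanconi and homologous recombination genes 1 and 5. After correction 2 of 21 BAF genes were higher and 7 lower, against 17.9% and 13.4% of all genes. Of 9 neural crest, EMT and neuronal genes 2 rose and 1 fell (median -0.01). Of 17 homeobox and polarised tissue genes 0 rose and 4 fell, the falls being near the 25.1% of all genes. The 4 were HOX genes, with HOXB9 at 4.26 and 3.49 against 6.68 and 7.24.

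The wildtype degron line was set against the mutant degron and knockout lines as well, in fits that use no parental library. The counts were 5367 genes (62.4%) against mutant degron cells and 3857 (44.8%) against the knockout line. In all 3 comparisons at once, with a log2 difference of at least 1 in the same direction, 29 genes were higher (0.337%) and 13 lower (0.151%). After correction there were 21 (0.263%) and 10 (0.125%), of which 13 and 5 were among those as deposited. The lower genes were led by H2BFXP, SCML1, MYD88 and TTR, with RPS27A, RPL39, RPL9, PFDN4, NDUFA4 and JPH3. After correction the call held for SCML1, MYD88, TTR, JPH3 and GALNT14 and was lost for RPS27A, RPL39, RPL9, PFDN4 and NDUFA4, while H2BFXP has no length. JPH3, a junctional membrane protein of neurons, had 1.39 and 1.59 in the wildtype degron line against 4.71 and 5.85 in parental cells, 4.55 and 5.43 in mutant degron cells and 8.89 and 9.65 in the knockout line. For TTR the other lines diverged widely, with 76.7 and 62.9 in mutant degron cells and 87.3 and 93.7 in the knockout line.

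The higher genes were led by CLU, DSP, OCIAD2, MAP1B, PLXNC1, SLC1A4, L1CAM, OCA2, SLC16A3 and PARP10. Of these 10 genes L1CAM was the one that lost the call after correction. OCIAD2 was listed at 0 in all 4 libraries of the other derived lines. OCA2 had 7.84 and 9.57 in mutant degron cells and 5.40 and 5.42 in the knockout line, below its parental level. PLXNC1 had 28.6 and 31.4 in mutant degron cells and 36.6 and 37.6 in the knockout line. DSP had 0.611 and 0.182 in mutant degron cells, and the wildtype degron line exceeded them by a log2 difference of 4.16 ± 0.16. That comparison was among those by which the group was chosen. The matrix genes TGFBI and LOXL2 did not belong to this group, since the knockout line held 80.7 and 43.7 of TGFBI and 32.6 and 26.5 of LOXL2. LRP1, PXDN and LOC390660 were outside it too. In mutant degron cells LRP1 stood at 15.9 and 15, PXDN at 45 and 44.6 and LOC390660 at 10.9 and 3.5. CSPG4, FLNC, DYNC1H1, IGSF3 and LOC729603 did not pass in all 3 comparisons either.

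**Figure D5:**
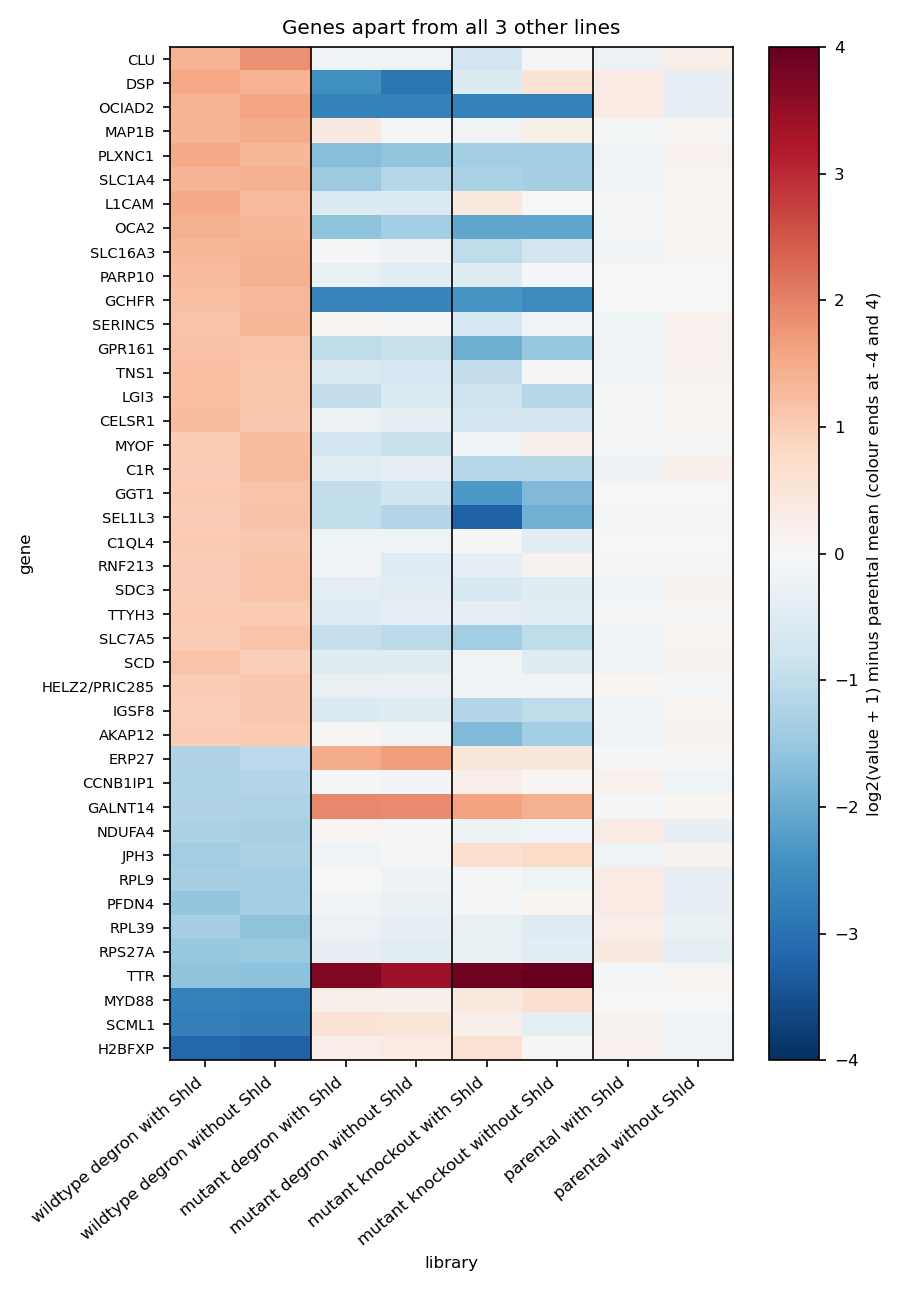
Log2(value + 1) minus the parental mean for the 42 genes that passed in all 3 comparisons, 29 higher and 13 lower in the wildtype degron line. Columns are libraries and rows genes ordered by their difference from parental cells, with red for higher and blue for lower than parental. Both wildtype degron libraries have the same colour in a row because the genes were chosen so, and TTR and GALNT14 are above the parental mean in the other derived lines.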

How the data were processed

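RNA of 8 MEL202 libraries was sequenced as 100-base paired reads, per the labels. TopHat and Cufflinks with hg19 are named in the submitters' processing notes, and neither versions nor strand use is stated there. The authors deposited FPKM values for 32087 loci, and the 75th percentile of each library is close to 10 in the deposited values, which is read here as the authors' rescaling. Absolute depth is unknown, so no counting interval is given.

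Named loci averaging 5 or more across the 8 libraries were kept (8810), and 147 small RNA loci and 63 secondary loci of a symbol were left out, which gave 8600 genes. Values were tested as log2(value + 1) with limma 3.58.1 in R 4.3.3 (eBayes with trend, 2 libraries against 2, 2 residual degrees of freedom, Benjamini-Hochberg over all genes tested). A fold change on this scale understates the change of low genes. The test was run on simulated data first.

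A length and GC correction (loess, span 0.3, per library) was added after the data were seen, with a length for 7972 of 8600 genes (92.7%). Same-Shld libraries of the lines did not deviate together (correlation 0.05), so the fit has no block. Named genes were SF3B1, the 20 largest rises and 20 largest falls, the 10 largest in each direction among genes apart from all other lines, and up to 6 called members of each of 46 lists. XBP1, CRELD2, GALNT14 and the markers THY1, COL1A2, DCN and FAP fall outside that rule and were chosen after their values were seen. The same holds for the genes listed for opposite directions in 2 lines. The members and lists were chosen with earlier results of these data known. Alternatives were other pseudocounts, filters, scalings, fits and leaving out each library. A few genes covered by the naming rule are not reported here.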

Additional observations from a re-analysis of the deposited data

Results flagged for a closer look

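A set of genes differed from parental cells in opposite directions in the wildtype degron line and in another derived line. Each had a log2 difference of at least 1 in size from parental cells in both lines. The values below are log2 differences between the 2 derived lines, with no explanation weighed. Both comparisons with parental cells share the parental libraries. The genes were picked by those comparisons, so a large difference between the derived lines follows from the choice and adds no separate evidence.

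Higher in the wildtype degron line than in both others were SLC1A4 (2.69 and 2.69, minus mutant degron and minus knockout), SEL1L3 (2.16 and 3.66), OCIAD2 (4.17 and 4.17), PLXNC1 (3.07 and 2.77), OCA2 (2.86 and 3.45) and GCHFR (3.91 and 3.7). OCIAD2 is listed at 0 in both other lines, and the size of a difference from a listed 0 depends on the pseudocount. Lower than in both were GALNT14 (-3.13 and -2.75) and TTR (-5.17 and -5.55).

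For the next genes the opposite direction was met in 1 other line, and several of them also differed from the remaining line in the same direction. Minus the mutant degron line the differences were TGFBI (2.98), DSP (4.16), ERP27 (-2.7) and PLCB2 (-2.53). Minus the knockout line they were IGSF8 (2.1), GPR161 (2.89), AKAP12 (2.58), PCOLCE (2.34), C1R (2.25), POSTN (3.78), SLC7A5 (2.24), GGT1 (3.14) and EMC10 (-5.55, from a listed 0). GGT1 has close paralogs, which makes its level less certain.

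Outside the named genes, 32 of 1061 unnamed loci were at least 2-fold higher in both wildtype degron libraries than in either parental library, and 46 were at least 2-fold lower. No share of all genes by this same rule is given, so whether these counts are unusual cannot be told.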

How the results depend on the processing

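The count of 4234 genes against parental cells was 2499 after the length and GC correction and 0 with no level filter, where 5619 of 15368 loci had an unadjusted p below 0.05 and limma's prior degrees of freedom were 1.01. Leaving out loci at 0 in all 4 libraries, an alternative added after the data were seen, gave 2879. The 216 genes with a log2 difference of at least 1 became 115 with a pseudocount of 5, 376 with total scaling, 90 after the correction and 0 with no level filter. The 42 genes apart from all other lines became 21 with a pseudocount of 5, 77 with total scaling and 0 with no level filter. Leaving out 1 library gave 3110 to 4442 genes against parental cells, 91 to 516 with a log2 difference of at least 1, 4412 to 4913 against mutant degron cells, 37 to 59 apart from all other lines, and 1669 to 4618 against the knockout line, where 1725 and 1669 were without a wildtype degron library. A lone library is then assumed to vary like the other line. The replicate block by Shld state gave 4412 genes, and the libraries share only that state. Of the genes the naming rule takes, signs turned among others for GNB2L1 (0.18, quantile normalization) and, after the correction, for SNRPE (0.05), NOP58 (0.02), EIF1B (0.20), SF3B5 (0.03), SNRPA1 (0.05) and RAD51C (0.44). Of 266 named genes 176 kept direction and call after the correction, of 258 with a length, and 234 with total scaling. The cause was not tested for these shifts. List medians had the other sign in 14 of 45 lists with total scaling and in 9 after the correction.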

Other observations

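After the length and GC correction, the 302 tested genes on chromosome 8 (RefSeq, GRCh38.p14) had a median log2 difference of 0.16 between the wildtype degron line and parental cells. The medians of the other chromosomes lay between -0.06 and 0.07. As deposited, the chromosome 8 median was 0.09, against 0.11 for chromosome 19. Against the same parental libraries it was 0.06 in the mutant degron line and 0.12 in the knockout line after correction.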
